A study of Homo sapiens with 30 samples.

Results

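TALL-1 is an established human cell line grown from T-cell acute lymphoblastic leukaemia (T-ALL). Its response to decitabine was read from 6 of the 30 libraries in the study, taken by their sample titles: 3 from cells given 1 µM decitabine for 48 h and 3 from cells given the solvent dimethyl sulfoxide (DMSO). The other 24 libraries came from 4 further T-ALL lines (PEER, MOLT-16, Loucy and PER-117) with the same treatments, 3 libraries each, and serve here to set the spread between libraries and to test where TALL-1 differs. All lines were grown in RPMI-1640 with 10 or 20% fetal calf serum, and sequencing was from the 3′ ends of polyadenylated RNA. Whether 3 libraries with the same label were grown as separate cultures is not stated, so p-values measure only the spread between these libraries, which may be technical. A single line is described, and what is found in it need not hold for other leukaemias.

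Decitabine is a deoxycytidine analogue that is built into DNA during replication, where it traps DNA methyltransferases. Cells pass from G1 to S phase when cyclin-dependent kinases release E2F transcription factors from the RB family of pocket proteins. E2F factors then drive the genes for origin licensing, the replication fork and deoxynucleotide supply. Genes of G2 and mitosis peak later. Many of them are held down in resting cells by the DREAM complex, which binds the CHR element, and are driven in G2 by MYBL2 and FOXM1. ATF4 is a transcription factor of amino acid shortage whose targets include amino acid transporters, enzymes of serine and folate metabolism and tRNA synthetases.

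The TALL-1 libraries held 2.49 M to 6.54 M reads on the gene's strand. Levels are CPM, reads of a gene scaled to a common library size, given below as replicates 1, 2 and 3 in that order. T-cell markers were present, with all 16 detected and a summed level of 6786 to 7434 CPM with DMSO and 4976 to 5538 CPM with decitabine. Short sets of markers of other cells were low. Myeloid markers summed to at most 5.37 CPM (ELANE and CSF1R at 0). Erythroid markers summed to at most 1.61 CPM (HBG1 and ALAS2 among those at 0) and B-cell markers to 10.8 to 26.0 CPM. Epithelial and stromal markers summed to 0.429 to 1.79 CPM with DMSO and 5.35 to 6.44 CPM with decitabine. The collagen gene COL1A1 carried most of this, at 0.215, 0.246 and 0.358 CPM with DMSO and 3.45, 4.79 and 3.82 CPM with decitabine. Longer lists for the same kinds of cell held members at higher levels. Myeloid genes summed to 431, 456 and 167 CPM with DMSO and 241, 228 and 251 CPM with decitabine. Over the 6 libraries B-cell genes summed to 166 to 241 CPM. Erythroid and megakaryocyte genes summed to 287 to 412 CPM and epithelial and stromal genes to 140 to 252 CPM. The part of these markers and lists in the results was not tested. In bulk RNA, fewer cells of a kind and less RNA per cell cannot be told apart.

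DMSO replicate 3 stood apart from the other 5 TALL-1 libraries. For this check 43 genes were taken that reached 20 CPM in untreated PEER and stayed at 0.5 CPM or less in DMSO replicates 1 and 2 of TALL-1. All 43 were detected in DMSO replicate 3, at a median of 14.9% of their PEER level (interquartile range 13.3 to 17.9%). The decitabine libraries, which played no part in the choice, had medians of 0.430%, 1.35% and 1.04%. The medians of DMSO replicates 1 and 2, 0.733% and 0.259%, were held low by the choice of genes. The cardiac homeobox gene NKX2-5, a T-ALL oncogene, was at 0.429, 0 and 22.6 CPM with DMSO and 0, 0.15 and 0.765 CPM with decitabine. The haematopoietic homeobox gene HHEX was at 0.429, 0.246 and 16.1 CPM with DMSO and 0.23, 0.599 and 1.15 CPM with decitabine. Of the 43 genes, 5 were called lower with decitabine when all libraries were used. Each result below was therefore also computed without that library.

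A gene was called when its adjusted p was under 0.05 by edgeR (quasi-likelihood F test, Benjamini-Hochberg adjusted over 15081 genes tested). Decitabine raised 1017 genes (6.74% of those tested) and lowered 923 (6.12%). Every count of list members called below is to be set beside these shares, and no list was tested as a set. Some genes belong to several lists, as CDC45 and GINS2 do to the S-phase and origin licensing lists. Counts of such lists are not separate results. Changes of 2-fold or more were made by 536 of the genes raised (3.55% of those tested) and 288 of those lowered (1.91%). Without DMSO replicate 3, 831 of 15756 genes tested were higher (5.27%) and 664 lower (4.21%). Of the genes called with all libraries, 698 of the 1017 higher and 584 of the 923 lower were called again. The lower count also fell to 611 without decitabine replicate 1 and to 493 without decitabine replicate 3. The 2 treatments did not overlap in 998 of the 1017 genes called higher and 781 of the 923 called lower. A lack of overlap in a called gene therefore adds little to its call. The median change of all genes tested was -0.00077 on the log2 scale. Rises were larger than falls: the median called rise was 1.05 and the median called fall -0.75 on the log2 scale. A change is always decitabine minus DMSO in log2 units, and SE is its standard error, derived from the F statistic. A difference from the other lines is always from the mean response of those 4 lines. TALL-1 was not compared with any of them singly.

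The genes of S phase and those of G2 and mitosis moved in opposite directions. Promoters that hold the E2F, CHR and ATF4 motifs are shown first, picked from the genes described below because they have a match in this stretch. Each line holds the 100 bases upstream of the RefSeq transcription start on the gene's strand, 5′ to 3′, in GRCh38.p14. Capitals mark an E2F motif (TTTGGCGC, TTTCGCGC or TTTCCCGC on either strand) in the first 4, a CHR motif (TTTGAA on either strand) in CDC20 and PLK1, and an ATF4 motif (TGATGNAA on either strand) in the isoleucyl-tRNA synthetase gene IARS.
MCM6, chr2:135876444-135876543, minus strand: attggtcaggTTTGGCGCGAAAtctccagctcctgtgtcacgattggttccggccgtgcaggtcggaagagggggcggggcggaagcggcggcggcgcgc
E2F1, chr20:33686386-33686485, minus strand: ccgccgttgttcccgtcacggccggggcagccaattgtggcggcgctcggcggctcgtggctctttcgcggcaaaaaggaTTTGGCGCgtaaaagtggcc
PCNA, chr20:5126623-5126722, minus strand: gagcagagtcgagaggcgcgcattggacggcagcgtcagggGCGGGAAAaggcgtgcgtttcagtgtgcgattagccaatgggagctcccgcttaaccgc
GINS2, chr16:85688955-85689054, minus strand: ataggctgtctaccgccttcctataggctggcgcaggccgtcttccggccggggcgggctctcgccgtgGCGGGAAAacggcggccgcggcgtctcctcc
CDC20, chr1:43358881-43358980, plus strand: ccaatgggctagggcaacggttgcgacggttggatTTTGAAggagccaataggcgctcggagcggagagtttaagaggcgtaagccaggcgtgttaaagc
PLK1, chr16:23678789-23678888, plus strand: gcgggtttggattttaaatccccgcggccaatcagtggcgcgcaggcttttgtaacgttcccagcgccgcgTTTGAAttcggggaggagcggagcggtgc
IARS, chr9:92293698-92293797, minus strand: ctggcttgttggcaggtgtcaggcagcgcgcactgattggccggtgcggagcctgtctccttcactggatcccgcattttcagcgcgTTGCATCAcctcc

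Motifs were counted in windows from 250 bases before to 50 bases after the start. The CHR motif was found in 31 of the 44 G2/M genes with a promoter in the table (70.5%) and in 15.4% of all 27305 promoters of the RefSeq table. For the S-phase list a promoter was at hand for 32 of 43 members, too few to describe the list as a whole, and 16 of those 32 held an E2F motif, which 2.79% of all promoters hold. Among cytosolic tRNA synthetases, 6 of 19 held an ATF4 motif (31.6%), against 3.67% of all promoters. The ATF4 and amino acid stress list had it in 7 of 28 (25%). In serine and folate one-carbon enzymes it was found in only 1 of 20 (5%). The list members had passed the filter on counts, which all promoters had not. Among the 10747 tested genes with a promoter, the shares were 4.6% for E2F, 9.9% for CHR and 1.7% for ATF4 motifs. These matches describe letters in a window and do not show that a factor binds there.

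S-phase genes were lower throughout. Of a list of 43 genes used to score S phase, 38 fell, none rose and all 43 had a negative change, with a median of -1.18. The 2 treatments did not overlap in 42 of them, as was the case, in that direction, for 14.1% of all genes tested. The summed level of the list was 8118, 8766 and 8123 CPM with DMSO and 3773, 3944 and 3526 CPM with decitabine. All 3 decitabine libraries thus lay below every DMSO library. Without DMSO replicate 3, 36 fell and the median was -1.21. The fall was larger in TALL-1 than the mean of the other 4 lines for 34 of the 43 genes, where 4.01% of all genes had a more negative change in TALL-1.

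**Figure D1:**
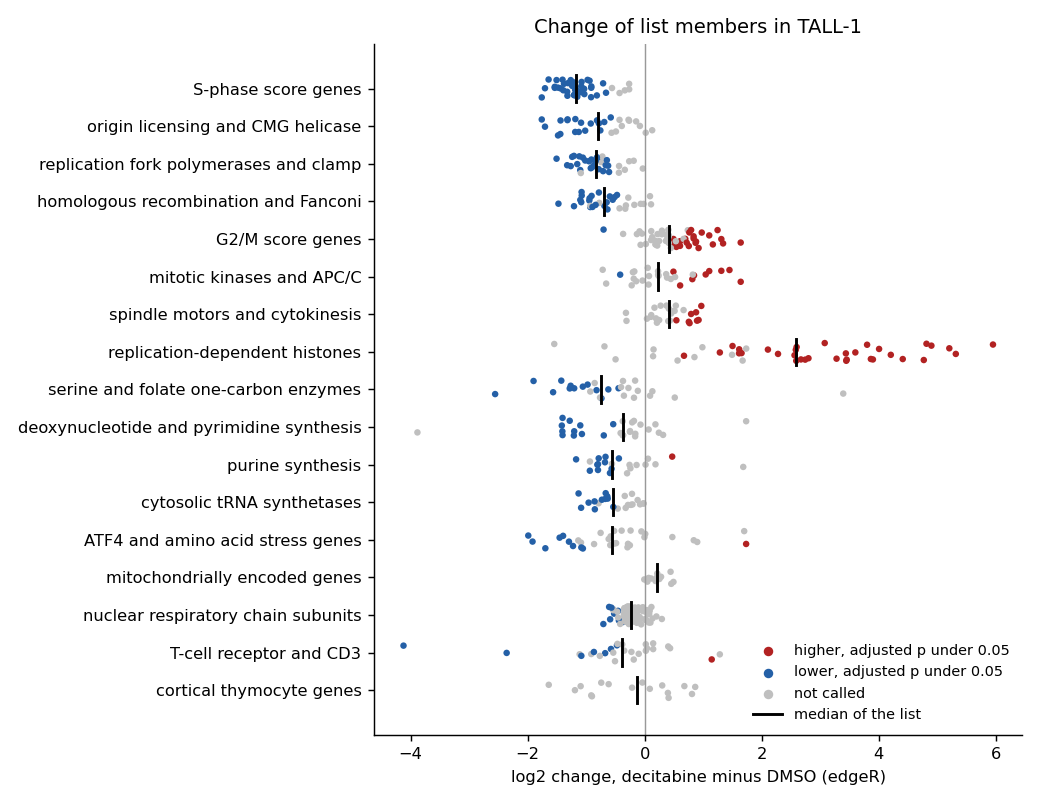
Log2 change (decitabine minus DMSO, x axis) of each tested member of 17 gene lists in TALL-1, with a bar at the median of each list. Red points were called higher and blue points lower at an adjusted p under 0.05; the S-phase, licensing, fork and recombination lists lie mostly left of 0, the mitotic lists mostly right of 0, and the replication-dependent histones reach 5.95.

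Origin licensing begins with the origin recognition complex and CDC6, which load the MCM2-7 ring. CDC45 and the GINS subunits then turn that ring into the active CMG helicase. Of 28 such genes tested, 18 fell and none rose. CDC45 was at 95.1, 99.1 and 102 CPM with DMSO and 26.4, 36.2 and 27.1 CPM with decitabine, a change of -1.71 (SE 0.18) with an adjusted p of 1.8e-07. MCM6, a subunit of the ring, was at 188, 218 and 195 CPM with DMSO and 49.2, 68.4 and 59.3 CPM with decitabine, a change of -1.76 (SE 0.21). GINS2 was at 68, 90.3 and 76.6 CPM with DMSO and 30.4, 24.7 and 29.4 CPM with decitabine (change -1.48, SE 0.16, adjusted p 3.8e-07). MCM5 was at 299, 408 and 244 CPM with DMSO and 136, 108 and 105 CPM with decitabine (change -1.44, SE 0.17, adjusted p 1.5e-06). In each of these 4 genes the groups did not overlap, as in most genes called lower. All 6 genes of the MCM2-7 ring fell. Of the other members, ORC2, ORC3, ORC4, ORC5 and ORC6 were not called, nor were the licensing inhibitor gene GMNN and DBF4 and CDC7, which encode the kinase that starts firing, all names chosen after their values were seen.

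At the replication fork, 24 of 33 genes tested fell, none rose, and all 33 changes were negative. PCNA, the sliding clamp, was at 875, 837 and 822 CPM with DMSO and 278, 346 and 266 CPM with decitabine, with a change of -1.51 (SE 0.24) and an adjusted p of 8.9e-05. FEN1, which trims Okazaki fragments, was at 339.7, 359.6 and 344 CPM with DMSO and 129.9, 166 and 138 CPM with decitabine (change -1.27, SE 0.24, adjusted p 0.000613). CHAF1B, a subunit of the chromatin assembly factor that follows the fork, was at 117, 168 and 141 CPM with DMSO and 68.3, 56 and 55 CPM with decitabine (change -1.24, SE 0.20, adjusted p 7.6e-05). In all 3 genes the highest decitabine library lay below the lowest DMSO library, as in most genes called lower. PRIM1, the small primase subunit, fell by 1.33 on the log2 scale from low levels, with 16.7, 13 and 10.6 against 2.07, 7.48 and 6.12 CPM, and was not called without DMSO replicate 1 or decitabine replicate 1 (adjusted p up to 0.128).

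**Figure D2:**
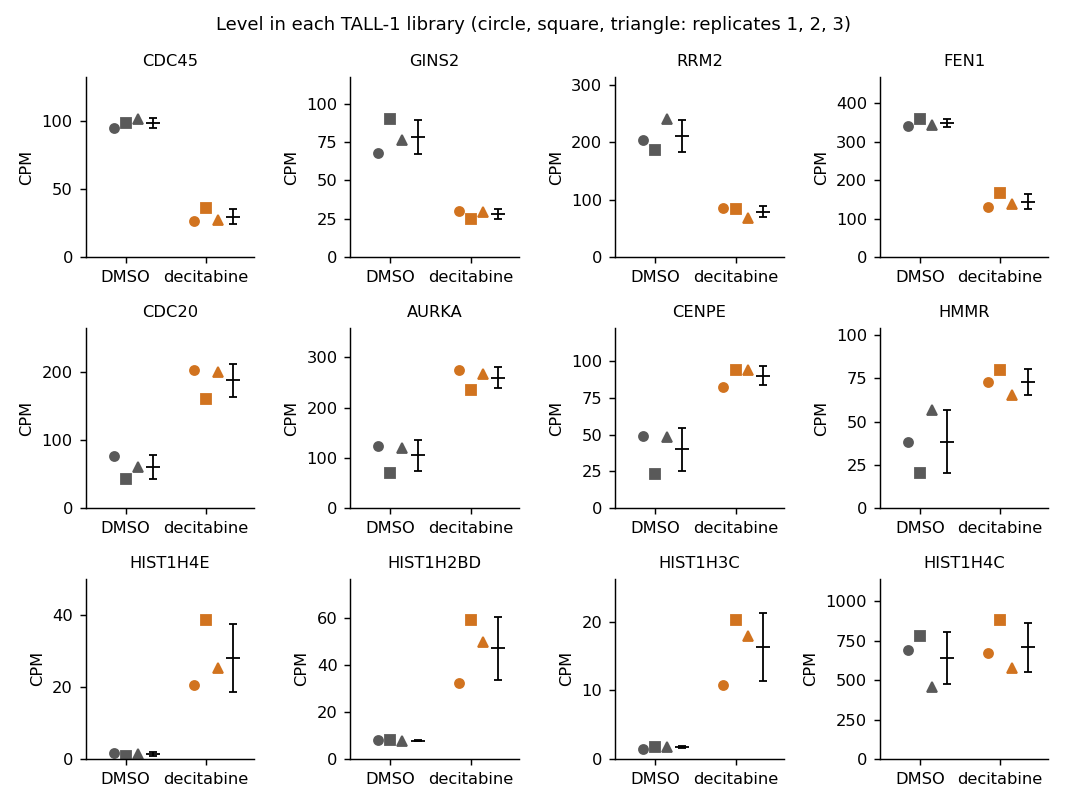
Level in CPM (y axis, from 0) of 12 genes in each of the 6 TALL-1 libraries, with the mean and SD of the 3 libraries of each treatment as a bar beside the points. CDC45, GINS2, RRM2 and FEN1 are lower in every decitabine library; CDC20, AURKA, CENPE and HMMR are higher, with DMSO replicate 2 the lowest library; the histone genes HIST1H4E, HIST1H2BD and HIST1H3C rise from under 10 CPM, while HIST1H4C overlaps.

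Of 18 genes of the E2F and RB family tested, 5 fell and none rose. E2F1, an activator of S-phase genes and itself an E2F target, was at 133, 190.1 and 108 CPM with DMSO and 50.4, 42.8 and 36.3 CPM with decitabine, a change of -1.72 (SE 0.16) with an adjusted p of 8.2e-08. E2F2 was at 239, 227 and 212 CPM with DMSO and 106, 95.6 and 99 CPM with decitabine, a change of -1.17 (SE 0.12) with an adjusted p of 1.7e-07. E2F3 fell by 0.79 and the pocket protein gene RBL1 by 0.85 on the log2 scale. The repressor E2F8 had few reads (10.9, 6.64 and 10.9 against 2.07, 4.34 and 3.06 CPM), and its call (adjusted p 0.024) was lost without DMSO replicate 1 or 3 or decitabine replicate 1 or 3 (adjusted p up to 0.114). RB1 itself was at 195, 169 and 172 CPM with DMSO and 77.7, 132 and 107 CPM with decitabine and was not called (adjusted p 0.159). It was called lower with no filter on low counts (adjusted p 0.000567) and with the TALL-1 libraries alone (adjusted p 0.0116). The same held without the 3 libraries taken to hold another line's transcripts (adjusted p 0.019). Of these, only the TALL-1 library was checked here. The repressor E2F4 (change -0.12) and the pocket protein gene RBL2 (change -0.12) were also not called, and their groups overlapped. Neither MYBL2 (319.8, 367 and 251 against 237, 159 and 192 CPM, adjusted p 0.093) nor FOXM1 (59.2, 35.2 and 43.7 against 48.3, 40.1 and 63.5 CPM, adjusted p 0.785), the activators of G2 genes, was called. In the 3 fits that called RB1 lower, MYBL2 was called lower too (adjusted p 0.000866, 0.0182 and 0.00707).

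Cyclins split by phase. The G1/S cyclin genes CCNE1 and CCNE2 fell, CCNE1 at 17.8, 25.3 and 20.1 CPM with DMSO and 11, 5.84 and 8.41 CPM with decitabine (change -1.35, SE 0.21, adjusted p 7.3e-05). CCND3, the D-type cyclin expressed in T cells, was at 951, 937 and 971 CPM with DMSO and 566, 489 and 486 CPM with decitabine (change -0.89, SE 0.13, adjusted p 2.3e-05). CDK2, the partner of cyclin E, was at 473, 581 and 423 CPM with DMSO and 308, 254 and 244 CPM with decitabine (change -0.87, SE 0.15, adjusted p 0.000241). The phosphatase gene CDC25A also fell, by 0.77 on the log2 scale, but its call was lost without DMSO replicate 3 or decitabine replicate 2 (adjusted p up to 0.0725). The mitotic cyclin genes went the other way. CCNB1 was at 76.2, 43 and 83.1 CPM with DMSO and 158, 162 and 161 CPM with decitabine (change 1.24, SE 0.18, adjusted p 2.7e-05) and CCNB2 at 117, 57.3 and 141 CPM with DMSO and 194, 189.6 and 193 CPM with decitabine (change 0.87, SE 0.21). CDC25B, a phosphatase that activates CDK1, was at 214, 156 and 172 CPM with DMSO and 412, 286 and 368 CPM with decitabine (change 0.98, SE 0.16, adjusted p 9.3e-05). CDK1 itself, at 538, 340.4 and 539 CPM with DMSO and 495, 511 and 542 CPM with decitabine, and CCNA2, at 102, 61.5 and 103 CPM with DMSO and 109, 112 and 103 CPM with decitabine, were not called. DMSO replicate 2 was the lowest library for both, and the treatments overlapped. CCND2 was called lower with all libraries, at 0.858, 0.492 and 12.2 against 0.46, 1.95 and 0 CPM, and its change turned to 0.63 without DMSO replicate 3 (adjusted p 0.656).

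Among 7 genes for inhibitors of cyclin-dependent kinases tested, 3 rose and none fell. CDKN1B, which encodes p27 and holds back cyclin E and CDK2, was at 138, 114 and 102 CPM with DMSO and 229.9, 201 and 253 CPM with decitabine, a change of 0.95 (SE 0.14) with an adjusted p of 1.9e-05. CDKN2D, an inhibitor of CDK4 and CDK6, was at 112, 81.4 and 126 CPM with DMSO and 192, 215 and 221 CPM with decitabine (change 0.97, SE 0.18, adjusted p 0.000402). CDKN3, a phosphatase of CDKs that is itself a G2/M gene, was at 102, 61.5 and 108 CPM with DMSO and 207, 214 and 211 CPM with decitabine (change 1.22, SE 0.16, adjusted p 4.3e-06). The rises of CDKN1B and CDKN3 were larger than the mean of the other 4 lines, with differences of 0.72 and 1.31. The difference for CDKN2D (0.67, adjusted p 0.0359) was lost in 5 of the 6 fits that leave out 1 TALL-1 library. CDKN1A, which encodes the p53-induced inhibitor p21, was barely read in TALL-1 (1.29, 0 and 3.4 against 1.15, 0.449 and 1.91 CPM). Its change was -0.80 here against a mean of 2.35 in the other 4 lines, a difference of -3.15 with an adjusted p of 0.0116. Without DMSO replicate 3 the change turned to 0.50 and the difference was not called (adjusted p 0.404), nor was it without decitabine replicate 2.

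G2/M genes were higher. Of 53 tested genes of a G2/M score, 22 rose, 1 fell and 47 had a positive change, with a median of 0.41. The summed level was 13079, 8930.0 and 11946 CPM with DMSO and 14912, 13875 and 14514 CPM with decitabine. The decitabine libraries lay above all DMSO libraries, but the DMSO libraries themselves were far apart, with replicate 2 lowest. Without DMSO replicate 2 the count of rises dropped to 12 and the median to 0.26, while without DMSO replicate 3 it was 23 with a median of 0.56. The response was more positive in TALL-1 than the mean of the other 4 lines for 27 of the 53 genes, where this held for 3.38% of all genes. The member that fell was CBX5, the heterochromatin protein HP1 alpha, with a change of -0.70 (SE 0.16) and an adjusted p of 0.00383.

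**Figure D3:**
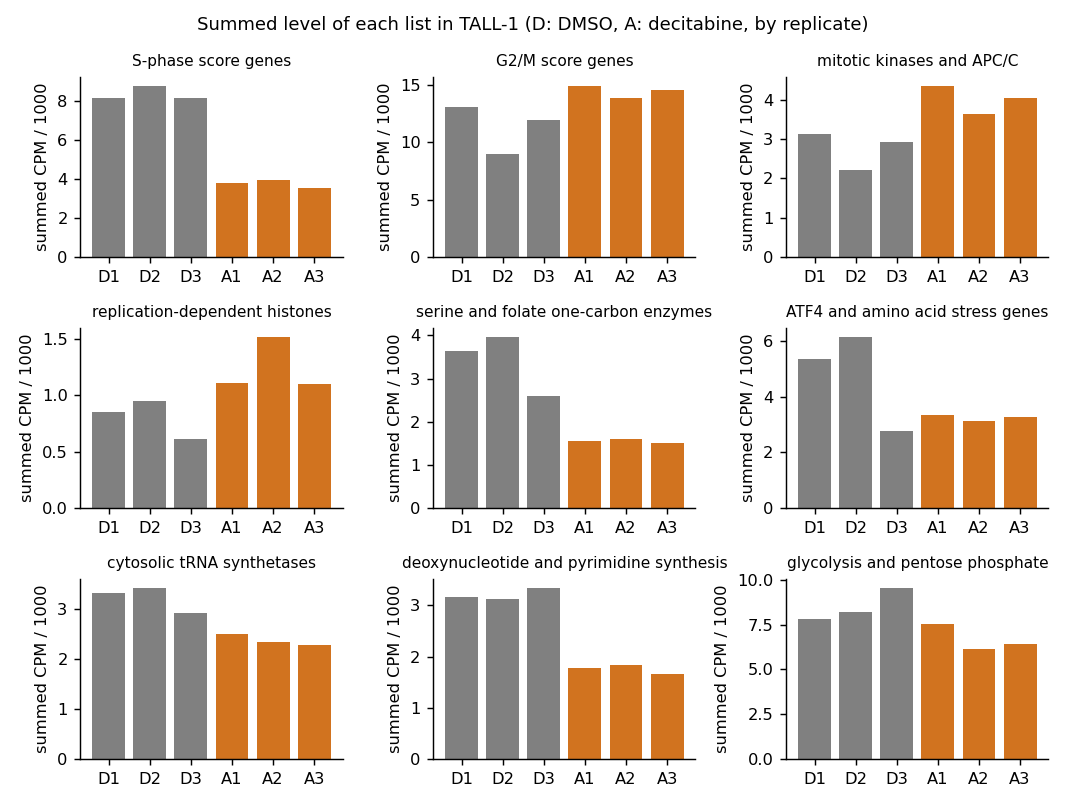
Summed CPM of all members of 9 lists (y axis, from 0) in the 3 DMSO libraries (grey, D1 to D3) and the 3 decitabine libraries (orange, A1 to A3) of TALL-1. The G2/M sum is lowest in DMSO replicate 2 at 8930 CPM, and the ATF4 sum is lowest in DMSO replicate 3 at 2760 CPM, below all decitabine libraries.

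Regulators of entry into and exit from mitosis were among the genes that rose. CDC20, the activator of the anaphase-promoting complex, was at 77, 42.8 and 60.2 CPM with DMSO and 203, 159.5 and 199.6 CPM with decitabine, a change of 1.64 (SE 0.17) with an adjusted p of 1.7e-07. PLK1, polo-like kinase 1, was at 61, 25.6 and 57.1 CPM with DMSO and 148, 110.0 and 136 CPM with decitabine (change 1.45, SE 0.21, adjusted p 1.9e-05). AURKA, the spindle-pole kinase, was at 124, 69.9 and 120.5 CPM with DMSO and 276, 236 and 268 CPM with decitabine (change 1.31, SE 0.15, adjusted p 5.6e-07). UBE2C, the ubiquitin-conjugating enzyme of the anaphase-promoting complex, was at 320.4, 183 and 239 CPM with DMSO and 610.2, 434 and 550.5 CPM with decitabine (change 1.10, SE 0.17, adjusted p 3.9e-05). These 4 kept their call whichever TALL-1 library was left out. In the other lines the mean changes of CDC20, PLK1 and AURKA were -0.15, -0.33 and -0.14. Among 29 mitotic kinases and subunits or activators of the anaphase-promoting complex tested, 9 rose and 1 fell, and none fell without DMSO replicate 3.

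Kinetochore genes divided. Of 33 tested, 6 rose and 6 fell. Risers included the centromeric histone CENPA, at 38.8, 11.8 and 26.5 CPM with DMSO and 45.3, 67.6 and 84.9 CPM with decitabine (change 1.34, SE 0.30), and the kinetochore motor CENPE, at 48.9, 23.1 and 48.2 CPM with DMSO and 82.5, 93.8 and 94.4 CPM with decitabine (change 1.16, SE 0.24). Genes that fell included the inner-kinetochore subunits CENPM, at 121, 114 and 94.7 CPM with DMSO and 48.5, 48.5 and 38.2 CPM with decitabine (change -1.27, SE 0.17), CENPK (change -0.86, SE 0.20) and CENPH (change -0.85, SE 0.15), and ZWINT (change -0.86, SE 0.18). Spindle motors and cytokinesis genes gave 8 rises and no fall among 28, but 3 rises without DMSO replicate 2 and 5 each without decitabine replicate 2 or 3. ASPM, a spindle-pole protein, was at 93.6, 50.4 and 93.1 CPM with DMSO and 152, 157 and 156 CPM with decitabine (change 0.97, SE 0.18, adjusted p 0.000467). HMMR was at 38, 20.4 and 56.6 CPM with DMSO and 73.1, 80.1 and 65.4 CPM with decitabine, and its call was lost without DMSO replicate 2 or decitabine replicate 2 (adjusted p up to 0.0964). Condensin and cohesin genes gave 4 falls and no rise among 21, and 2 falls without DMSO replicate 3 or without any of the decitabine replicates.

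Transcripts of replication-dependent histones rose while the S-phase genes fell. Their mRNAs normally end in a stem-loop rather than a poly(A) tail, so a library primed on poly(A) reads only those copies that carry one. Of 65 such genes, 44 passed the filter on low counts. A gene that is near 0 in DMSO libraries passed only where another group was high, so these counts lean towards rises. Of the 44, 33 rose and none fell, with a median change of 2.59. By type, 11 of 13 H2B genes, 7 of 10 H2A genes, 7 of 9 H4 genes, 7 of 8 H3 genes and 1 of 4 H1 genes rose. Without DMSO replicate 3, 30 rose and 1 fell. Many of these genes are near-identical copies, between which reads may be split.

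HIST1H4E was at 1.72, 0.738 and 1.43 CPM with DMSO and 20.5, 38.5 and 25.2 CPM with decitabine, a change of 4.41 (SE 0.42) with an adjusted p of 8.2e-08. HIST1H4B was at 0.429, 1.23 and 1.07 CPM with DMSO and 20.9, 29 and 27.9 CPM with decitabine (change 4.81, SE 0.49) and HIST1H3B at 0.429, 0.492 and 0.358 CPM with DMSO and 6.44, 9.73 and 7.65 CPM with decitabine (change 4.20, SE 0.54). HIST1H2BD, at 7.94, 7.87 and 7.7 CPM with DMSO and 32.4, 59 and 49.7 CPM with decitabine (change 2.59, SE 0.29), and HIST1H3C, at 1.5, 1.72 and 1.79 CPM with DMSO and 10.8, 20.2 and 18 CPM with decitabine (change 3.28, SE 0.34), were picked after their values were seen. In all 5 the decitabine libraries were many times above the DMSO libraries. HIST1H2BI had 1 read over the DMSO libraries and 67 with decitabine, a ratio of 70.3 (95% interval 12.2 to 2816, counting error only). HIST1H2AH had 3 reads and 114 reads, a ratio of 39.9 (95% interval 13.3 to 196). The abundant HIST1H4C, also picked after its values were seen, was at 689.8, 777 and 454 CPM with DMSO and 673, 879 and 576 CPM with decitabine and was not called (adjusted p 0.843). For 29 of the 44 genes the response in TALL-1 was more positive than the mean of the other 4 lines, and 27 of these were called higher in TALL-1.

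Of 13 genes for processing of histone mRNA, 4 fell and none rose, a count of 2 without DMSO replicate 1 or without decitabine replicate 3. SLBP, the protein that binds the stem-loop, was at 118, 112 and 115 CPM with DMSO and 38.6, 76.9 and 50.8 CPM with decitabine, a change of -1.04 (SE 0.32) with an adjusted p of 0.0306. Its call was lost in 5 of the 6 fits that leave out 1 library, all but that without decitabine replicate 2 (adjusted p up to 0.155). NPAT, the cyclin E target that switches on histone genes, was at 64.6, 59.8 and 68 CPM with DMSO and 42.1, 39.2 and 34.8 CPM with decitabine (change -0.72, SE 0.14, adjusted p 0.000742). Its partner CASP8AP2 was at 34.8, 48 and 45.7 CPM with DMSO and 20.2, 25.4 and 21.8 CPM with decitabine (change -0.92, SE 0.23). The processing factors LSM10 and LSM11 were not called, with changes of 0.17 and 0.15.

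Genes of homologous recombination and the Fanconi pathway fell in 20 of 31 cases, with no rise. The falls numbered 16 without DMSO replicate 3 and 14 without decitabine replicate 1 or 3. RAD54L, a motor of strand exchange, was at 41.8, 38.4 and 41.5 CPM with DMSO and 8.74, 17.1 and 18.4 CPM with decitabine (change -1.48, SE 0.33, adjusted p 0.00314). FANCI was at 165, 148 and 133 CPM with DMSO and 60.7, 80.4 and 65.4 CPM with decitabine (change -1.10, SE 0.23) and EXO1, a resection nuclease, at 31.5, 26.8 and 31 CPM with DMSO and 12.4, 16.2 and 13 CPM with decitabine (change -1.09, SE 0.21). Of 22 mismatch and base excision repair genes, 5 fell. The largest of these falls was that of UNG, the uracil glycosylase, at 261, 343 and 224 CPM with DMSO and 119, 114 and 81 CPM with decitabine (change -1.39, SE 0.22, adjusted p 6.7e-05). RAD54L, FANCI, EXO1 and UNG had lower values in every decitabine library than in any DMSO library, as did most genes called lower.

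Of 35 p53 targets tested, 5 rose and 1 fell. TP53INP1 was at 6.87, 3.2 and 10.2 CPM with DMSO and 26.4, 22.4 and 22.9 CPM with decitabine (change 1.78, SE 0.39, adjusted p 0.00271) and SESN1, a stress-induced inhibitor of mTORC1, at 9.44, 7.13 and 8.95 CPM with DMSO and 16.8, 16.8 and 19.9 CPM with decitabine (change 1.04, SE 0.23). The gene that fell was DDB2, a nucleotide excision repair factor, at 62, 92.2 and 59.4 CPM with DMSO and 48.3, 33.7 and 36.7 CPM with decitabine (change -0.85, SE 0.17). The count of rises was 3 when DMSO replicate 1 or 2, or decitabine replicate 2 or 3, was left out, and 2 fell without DMSO replicate 3. None of the 35 rose more than in the other lines and 3 had a more negative response.

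Differentiation genes changed in both directions. Of 27 genes of the T-cell receptor and CD3 complex tested, 7 fell and 1 rose, where 6.12% of all genes tested fell and 6.74% rose. The beta chain gene TRBC2, picked after its values were seen, was at 3781, 4251.5 and 3711 CPM with DMSO. With decitabine it was at 2659, 2395 and 2288 CPM (change -0.68, adjusted p 0.0115, and 0.0203 without DMSO replicate 3). LCK, the proximal kinase of the receptor, was at 249, 273 and 272 CPM with DMSO and 133, 114 and 127 CPM with decitabine, a change of -1.08 (SE 0.13) with an adjusted p of 1.8e-06. CD3D was at 766, 729.5 and 706 CPM with DMSO and 521, 487 and 465 CPM with decitabine, a change of -0.58 (SE 0.14) with an adjusted p of 0.00739. The gamma chain gene TRGC2 rose, at 5.58, 7.13 and 12.5 CPM with DMSO and 14, 22.9 and 19.5 CPM with decitabine (adjusted p 0.0452), a call lost without DMSO replicate 1 or 2 or decitabine replicate 2 or 3 (adjusted p up to 0.194). The beta chain gene TRBC1 was at 168, 17 and 187 CPM with DMSO and 26.9, 31.7 and 11.1 CPM with decitabine, so that DMSO replicate 2 lay among the decitabine libraries. The call of TRBC1 (change -2.36) was lost in 5 of the 6 fits that leave out 1 library, all but that without DMSO replicate 2 (adjusted p up to 0.144), and its change was -1.94 without DMSO replicate 3. The delta chain gene TRDC (2.36, 0.492 and 22.9 against 0.23, 0.599 and 0.765 CPM) had a change of -4.12 that moved to -1.50 without DMSO replicate 3, and its call was also lost without any of the decitabine replicates (adjusted p up to 0.604). The falls numbered 6 without DMSO replicate 3, 4 without DMSO replicate 1, and 3, 3 and 2 without decitabine replicates 1, 2 and 3. With the TALL-1 libraries alone 8 genes of the list fell and 4 rose. With no filter on low counts 10 fell and 2 rose. The alpha chain gene TRAC, picked after its values were seen, was at 383, 456 and 296 CPM with DMSO and 935, 839 and 983 CPM with decitabine. Its groups did not overlap, yet it was not called (adjusted p 0.172).

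None of 16 cortical thymocyte genes was called by edgeR or by DESeq2, while 0 were higher and 3 lower at an unadjusted p under 0.05. Lower calls numbered 5 with no filter on low counts, 4 with the TALL-1 libraries alone and 1 without DMSO replicate 3. DNTT, the terminal transferase of receptor rearrangement, was at 235, 245 and 285 CPM with DMSO and 119, 113 and 102 CPM with decitabine (adjusted p 0.166, a name chosen after its values were seen). Among 22 mature T-cell genes, 4 rose and 1 fell, with a median change of 0.52. Without DMSO replicate 3, 6 rose and 1 fell, and the median was 1.20. The rises numbered 3 without DMSO replicate 1 or 2 or decitabine replicate 2. CCR9, a homing receptor for gut and thymus, was at 2.58, 2.71 and 3.22 CPM with DMSO and 11, 16.6 and 22.6 CPM with decitabine (change 2.53, SE 0.46, adjusted p 0.000461). CORO1A, an actin regulator of lymphocytes, was at 29, 34.7 and 21.7 CPM with DMSO and 4.6, 10.8 and 8.03 CPM with decitabine (change -1.82, SE 0.34, adjusted p 0.000416). For 1 of these 22 genes the response was more positive than the mean of the other 4 lines, and for none more negative.

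Among 19 cytotoxic and NK genes that passed the filter, 3 rose and 1 fell. The protease gene GZMA was at 0.215, 0.738 and 0.716 CPM with DMSO and 15.2, 12.9 and 14.5 CPM with decitabine, a change of 4.62 (SE 0.57) with an adjusted p of 1.9e-06. NKG7, a membrane protein of cytotoxic granules, was at 7.94, 11.8 and 7.88 CPM with DMSO and 37.2, 32.5 and 30.2 CPM with decitabine (change 1.87, SE 0.22). Of 36 genes of the list 11 had no read in TALL-1. The perforin gene PRF1 was at 0.429, 0 and 1.97 CPM with DMSO and 2.99, 1.05 and 1.15 CPM with decitabine and TBX21, a factor of effector cells, at 0, 0 and 1.07 CPM with DMSO and 0.69, 0.449 and 0.765 CPM with decitabine. Their treatments overlapped, neither was called, and both names were chosen after their values were seen. KIR3DL2 fell, at 12, 1.48 and 8.77 CPM with DMSO and 0.92, 0.748 and 0 CPM with decitabine, but was not called without DMSO replicate 1 or decitabine replicate 2 (adjusted p up to 0.0524).

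T-lineage transcription factors gave 5 rises and 4 falls among 35 tested, where 6.74% of all genes tested rose and 6.12% fell. TOX2 was at 9.44, 13.5 and 8.24 CPM with DMSO and 78.9, 44.6 and 85.3 CPM with decitabine, a change of 2.74 (SE 0.58) with an adjusted p of 0.00183. The inhibitors of E proteins ID1 and ID2 rose: ID1 was at 5.58, 2.46 and 9.67 CPM with DMSO and 23.5, 30.4 and 31 CPM with decitabine (change 2.20, SE 0.41) and ID2 at 2.79, 2.21 and 5.91 CPM with DMSO and 11.5, 15 and 16.8 CPM with decitabine (change 1.92, SE 0.35). FOXO1, a factor of quiescence and homing, was at 7.73, 9.1 and 6.09 CPM with DMSO and 19.5, 18 and 19.1 CPM with decitabine (change 1.31, SE 0.25). GATA3, a factor of T-cell commitment, was at 271, 254 and 277 CPM with DMSO and 446, 483 and 495 CPM with decitabine (change 0.83, SE 0.16). LEF1, a nuclear partner of beta-catenin, was at 384, 325 and 402 CPM with DMSO and 151, 195 and 212 CPM with decitabine (change -0.99, SE 0.18), RUNX1 at 102, 110.2 and 110.1 CPM with DMSO and 75.6, 78 and 67.3 CPM with decitabine (change -0.54, SE 0.12) and MYB at 547, 517 and 500.4 CPM with DMSO and 348, 345 and 348 CPM with decitabine (change -0.59, SE 0.12). Each of these 8 kept its call in every leave-one-out fit. ETS2, at 51.3, 38.1 and 107 CPM with DMSO and 33.6, 40.4 and 32.9 CPM with decitabine, was highest in DMSO replicate 3 and without it had a change of -0.32 (adjusted p 0.53), and its call was also lost without any of the decitabine replicates. The response of GATA3 was more positive than the mean of the other 4 lines (difference 0.84, adjusted p 0.00311). For TOX2, ID1, ID2 and FOXO1 no difference passed the test. In the other lines LEF1 and MYB had mean changes of -0.68 and -0.59.

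NOTCH1, the receptor most often activated in T-ALL, was at 138, 170.2 and 116 CPM with DMSO and 82.3, 90.7 and 60 CPM with decitabine, a change of -0.85 (SE 0.22) with an adjusted p of 0.00903, a call lost without DMSO replicate 2 or decitabine replicate 3 (adjusted p up to 0.0689). Of 22 NOTCH1 targets tested, the receptor gene included, 2 rose and 2 fell, where 6.74% of all genes tested rose and 6.12% fell. The falls numbered 4 without DMSO replicate 3 and 1 without decitabine replicate 3. The rises numbered 1 without DMSO replicate 2 or 3 or any of the decitabine replicates. SHQ1, an assembly factor of H/ACA ribonucleoproteins, was at 87.8, 76.5 and 90.6 CPM with DMSO and 40.5, 41.9 and 38.2 CPM with decitabine (change -1.08, SE 0.18). TRIB2, a pseudokinase, rose, at 66.3, 62.5 and 64.6 CPM with DMSO and 172, 128 and 138 CPM with decitabine (change 1.18, SE 0.19, adjusted p 9.8e-05). The targets HES1, DTX1 and MYC did not pass the test with all libraries, with HES1 at 123, 125 and 142 CPM with DMSO and 85.3, 196 and 148 CPM with decitabine, DTX1 at 467, 556 and 374 CPM with DMSO and 308, 284 and 273 CPM with decitabine and MYC at 30.3, 16.2 and 36.3 CPM with DMSO and 10.3, 21.6 and 13.8 CPM with decitabine, names taken for their roles after their values were seen. In HES1 the decitabine libraries spread on both sides of the DMSO libraries. BMI1, a polycomb protein of self-renewal, rose, at 35, 33.5 and 38.3 CPM with DMSO and 63.2, 54.5 and 54.3 CPM with decitabine (change 0.69, SE 0.12).

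Stem and progenitor genes cannot be read from all 6 libraries. Of 18 tested, 4 fell and 1 rose, but none fell without DMSO replicate 3 or without decitabine replicate 1. Leaving out decitabine replicate 2 or 3 gave 1 and 2 falls. ERG, a progenitor transcription factor gene, was at 2.15, 0.738 and 15.8 CPM with DMSO and 0.46, 0.299 and 0.382 CPM with decitabine, and its change was -1.97 without DMSO replicate 3 (adjusted p 0.449), against -4.13 with all libraries. The rise was that of SPINK2, at 1.29, 4.18 and 5.91 CPM with DMSO and 9.66, 7.03 and 10.3 CPM with decitabine (change 1.18, SE 0.29). The azurophil granule gene CTSG was the single myeloid gene called, at 149.8, 167 and 45.8 CPM with DMSO and 44.1, 46.4 and 47 CPM with decitabine (change -1.40, SE 0.34), with DMSO replicate 3 among the decitabine libraries. Cancer-testis and germline genes summed to 15.2, 14.5 and 92.6 CPM with DMSO and 94.5, 56.3 and 80.3 CPM with decitabine. Of 57, 30 had no read in TALL-1, 24 passed the filter and 3 rose. PAGE5 was at 0, 0 and 0.716 CPM with DMSO and 17.7, 8.08 and 8.79 CPM with decitabine and the melanoma antigen gene PRAME at 0.429, 0.984 and 10.9 CPM with DMSO and 26.9, 11.5 and 30.2 CPM with decitabine. The change of PRAME was 2.31 (SE 0.58) with all libraries and 4.97 without DMSO replicate 3, its highest DMSO library. In 8 of the 24 the response was smaller in TALL-1 than the mean of the other 4 lines, and in none larger.

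Genes of the DNA methylation machinery were split. Of 25 tested, 6 fell and 3 rose, with 1 rise without decitabine replicate 2. DNMT1, the maintenance methyltransferase, was at 887, 1034 and 709 CPM with DMSO and 263, 382 and 359 CPM with decitabine (change -1.39, SE 0.31). The chromatin remodeller HELLS, at 324, 392 and 300.1 CPM with DMSO and 144, 165 and 140.3 CPM with decitabine (change -1.18, SE 0.17), and its partner CDCA7, at 453, 469.6 and 436 CPM with DMSO and 151, 188 and 184 CPM with decitabine (change -1.38, SE 0.18), also fell, and both belong to the S-phase list. TET1, a methylcytosine dioxygenase, rose, at 28.5, 27.1 and 34 CPM with DMSO and 52.7, 61.5 and 40.5 CPM with decitabine (change 0.80, SE 0.19, adjusted p 0.00612), a call lost without decitabine replicate 2 (adjusted p up to 0.0515). The de novo enzyme DNMT3A was at 51.1, 49.9 and 62.1 CPM with DMSO and 60.5, 56.1 and 61.2 CPM with decitabine and was not called (adjusted p 0.656). DNMT3B, also a de novo enzyme, was called higher. Its response was more positive than the mean of the other lines (difference 1.36, adjusted p 0.000264). That difference kept its call whichever TALL-1 library was left out (adjusted p up to 0.00175). The mean change of TET1 in the other lines was -0.55, and the difference had an adjusted p of 0.000249.

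Interferon-stimulated genes gave 6 rises and 7 falls among 48, and 3 falls without DMSO replicate 3. IFIT3 was at 10.1, 7.38 and 7.88 CPM with DMSO and 22.5, 25 and 26.4 CPM with decitabine (change 1.54, SE 0.31, adjusted p 0.000944) and MX2 at 9.01, 9.84 and 11.8 CPM with DMSO and 21.2, 23.2 and 21.4 CPM with decitabine (change 1.10, SE 0.20). RSAD2, at 4.94, 1.97 and 10.9 CPM with DMSO and 0.46, 1.05 and 0.382 CPM with decitabine, was highest in DMSO replicate 3. Its change was -3.07 with all libraries and -2.26 without that library (adjusted p 0.0514). PARP14, at 38.4, 32.2 and 43 CPM with DMSO and 22.1, 27.5 and 16.4 CPM with decitabine (change -0.75, SE 0.16), kept its fall.

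In metabolism, enzymes of serine and folate one-carbon metabolism fell. Of 27 tested, 13 fell and none rose, and the count was again 13 without DMSO replicate 3. The summed level was 3629.5, 3974 and 2589 CPM with DMSO and 1547, 1599 and 1512 CPM with decitabine. MTHFD2, the mitochondrial methylene-tetrahydrofolate dehydrogenase, was at 1027, 1139 and 406 CPM with DMSO and 236, 235 and 217 CPM with decitabine, a change of -1.90 (SE 0.28) with an adjusted p of 2.3e-05. MTHFD1L, the next mitochondrial enzyme, was at 66.5, 88.3 and 45.5 CPM with DMSO and 23.2, 23.3 and 20.3 CPM with decitabine (change -1.57, SE 0.20, adjusted p 4e-06). SHMT2, the mitochondrial serine hydroxymethyltransferase, was at 464, 565 and 211 CPM with DMSO and 171, 145 and 144 CPM with decitabine (change -1.43, SE 0.31). In MTHFD2, MTHFD1L and SHMT2, DMSO replicate 3 was the lowest DMSO library. GGH was called lower, but was high only in DMSO replicate 3 (1.5, 0.246 and 17.4 against 0.92, 1.5 and 0.765 CPM), and its change was 0.34 without it. For 8 of the 27 genes the response was more negative than the mean of the other lines, among them MTHFD2 (difference -1.60, SE 0.30, adjusted p 0.00113).

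The targets of ATF4 and amino acid stress depended on the library left out. Their summed level was 5361, 6149.6 and 2759.5 CPM with DMSO and 3335, 3138 and 3272 CPM with decitabine. DMSO replicate 3 thus lay below the decitabine libraries and DMSO replicates 1 and 2 well above them. Of 32 tested, 9 fell and 1 rose, and 14 fell without DMSO replicate 3. The count was 4 without DMSO replicate 1, 3 without DMSO replicate 2 and 4 without decitabine replicate 2. EIF4EBP1, an inhibitor of cap-dependent translation, was at 49.6, 59 and 25.6 CPM with DMSO and 11.7, 13.5 and 16.4 CPM with decitabine (change -1.70, SE 0.31, adjusted p 0.000389). The cystathionine gamma-lyase gene CTH was at 59.2, 70.6 and 15.4 CPM with DMSO and 17.5, 15.6 and 27.1 CPM with decitabine, the glycine transporter gene SLC6A9 at 15, 18.7 and 3.4 CPM with DMSO and 4.14, 1.5 and 4.21 CPM with decitabine and the glutathione-degrading enzyme gene CHAC1 at 29.2, 27.1 and 11.5 CPM with DMSO and 5.06, 6.88 and 5.35 CPM with decitabine. In CTH and SLC6A9 the DMSO and decitabine libraries overlapped through DMSO replicate 3. The calls of CTH, SLC6A9 and CHAC1 were lost in 4, 3 and 5 of the 6 fits that leave out 1 library (adjusted p up to 0.206, adjusted p up to 0.128 and adjusted p up to 0.132), with each lost without DMSO replicate 1 or 2 or decitabine replicate 2. The rise was that of PPP1R15A, which encodes the stress phosphatase subunit GADD34, at 24.3, 30.5 and 23.1 CPM with DMSO and 82.3, 91.6 and 83.3 CPM with decitabine (change 1.73, SE 0.23, adjusted p 4.6e-06).

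**Figure D4:**
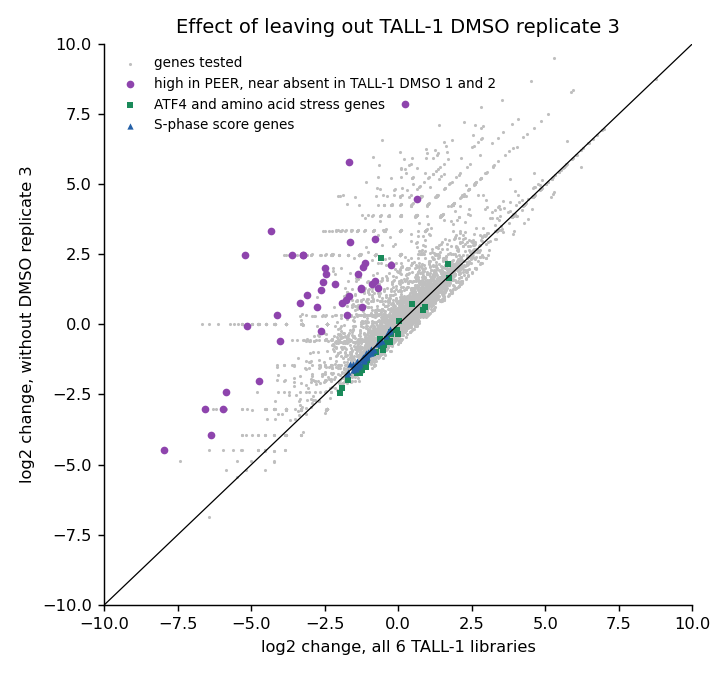
Log2 change (decitabine minus DMSO) of each gene with all 6 TALL-1 libraries (x axis) and without DMSO replicate 3 (y axis); the line marks equal values. Not all of the 43 genes that are high in PEER are marked. The 43 have a median of -2.45 with all libraries, and their place on the y axis follows from how they were chosen. The medians of the S-phase genes moved from -1.18 to -1.21 and of the ATF4 and amino acid stress genes from -0.55 to -0.75.

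Cytosolic tRNA synthetases, which charge tRNAs with amino acids, all had negative changes. Of 23 tested, including auxiliary subunits, 11 fell and none rose, with 12 falls without DMSO replicate 3. MARS was at 83.5, 77.2 and 81.1 CPM with DMSO and 32.2, 38.9 and 39.4 CPM with decitabine (change -1.13, SE 0.22, adjusted p 0.000716), GARS at 123, 119 and 80.2 CPM with DMSO and 45.1, 54.2 and 51.6 CPM with decitabine (change -1.09, SE 0.22) and YARS at 167, 173 and 112 CPM with DMSO and 94, 68.5 and 68.8 CPM with decitabine (change -0.96, SE 0.23). IARS, whose promoter is shown above, was at 62.2, 54.1 and 46.9 CPM with DMSO and 20.5, 38.2 and 30.6 CPM with decitabine (change -0.86, SE 0.26, adjusted p 0.0246), with a call lost without DMSO replicate 1 or decitabine replicate 1 or 3 (adjusted p up to 0.15). For 1 of the 23, NARS, the response was more negative than in the other lines, a call lost in 5 of the 6 fits that leave out 1 library. In the other lines MARS and GARS had mean changes of -0.48 and -0.50.

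Deoxynucleotide and pyrimidine synthesis gave 11 falls and no rise among 28 genes. DUT, which removes dUTP, was at 360.3, 355 and 439.7 CPM with DMSO and 129, 167 and 135 CPM with decitabine (change -1.42, SE 0.23, adjusted p 0.000127). The salvage kinase TK1 was at 56.7, 68.1 and 56.9 CPM with DMSO and 26.7, 19.5 and 22.6 CPM with decitabine (change -1.41, SE 0.18) and RRM2, the small subunit of ribonucleotide reductase, at 205, 187 and 241 CPM with DMSO and 85.3, 84.1 and 68.8 CPM with decitabine (change -1.41, SE 0.16). DCK, the kinase that activates decitabine, was at 50, 39.4 and 55.1 CPM with DMSO and 37.9, 50.9 and 37.5 CPM with decitabine and was not called (adjusted p 0.689, named for its role after its values were seen). Of 22 purine synthesis genes, 11 fell and 1 rose, with 7 falls without DMSO replicate 3. The rise was lost without DMSO replicate 1 or 2 or decitabine replicate 1 or 3. PAICS was at 250.4, 275 and 297 CPM with DMSO and 113, 139 and 112 CPM with decitabine (change -1.17, SE 0.21), GMPS at 39.5, 43.8 and 43.9 CPM with DMSO and 21.4, 23.8 and 20.6 CPM with decitabine (change -0.94, SE 0.15) and PRPS1 at 153, 161 and 157 CPM with DMSO and 90.6, 87 and 91 CPM with decitabine (change -0.81, SE 0.13). In all 6 called genes named here the treatments did not overlap, as in 781 of the 923 genes called lower.

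Energy metabolism changed less. Of 34 glycolysis and pentose phosphate genes, 7 fell and 3 rose, and the falls numbered 3 without DMSO replicate 3, 4 without decitabine replicate 2 and 2 without decitabine replicate 3. TXNIP, a brake on glucose uptake, was at 106, 112 and 75.5 CPM with DMSO and 250.2, 379.9 and 381 CPM with decitabine (change 1.79, SE 0.31, adjusted p 0.000246). The glucose transporter gene SLC2A3 was at 30, 26.8 and 20.2 CPM with DMSO and 72.7, 52.1 and 66.9 CPM with decitabine (change 1.31, SE 0.19, adjusted p 2.3e-05). LDHB was at 496, 476 and 606 CPM with DMSO and 348, 343 and 319 CPM with decitabine (change -0.64, SE 0.12, adjusted p 0.000401). PGK1 (620.4, 628 and 916 against 502, 434 and 449.6 CPM) and ENO1 (2247, 2573 and 3369.5 against 2289.7, 1561 and 1705 CPM) were highest in DMSO replicate 3 and lost their call without it, with changes of -0.43 and -0.38 against -0.64 and -0.56. ENO1 also lost it without decitabine replicate 2 or 3. In the TCA cycle 5 of 40 genes fell and 1 rose, with 2 falls when DMSO replicate 3 or decitabine replicate 2 or 3 was left out and no rise in those fits. IDH2, the mitochondrial isocitrate dehydrogenase, was at 514, 588 and 540.3 CPM with DMSO and 318, 255 and 231 CPM with decitabine (change -1.03, SE 0.12, adjusted p 1.5e-06). Its fall was larger than the mean of the other 4 lines (difference -0.93, SE 0.14).

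Nuclear genes for respiratory chain subunits gave 8 falls and no rise among 80, where 6.12% of all genes tested fell. The falls numbered 5 without DMSO replicate 1, 4 without DMSO replicate 3 and 2 without decitabine replicate 2 or 3. COX8A, a subunit of cytochrome oxidase, was at 419, 411 and 467 CPM with DMSO and 304, 271 and 274 CPM with decitabine (change -0.61, SE 0.12, adjusted p 0.000971). None of 13 mitochondrially encoded genes was called by edgeR and 1 was higher by DESeq2, while 3 were higher and 0 lower at an unadjusted p under 0.05. With no filter on low counts, or with TALL-1 libraries alone, 2 of the 13 rose, and 12 had a positive change with all libraries (median 0.21). Cytosolic ribosomal proteins had negative changes in 78 of 79 genes, with a median of -0.22. Their 11 falls became 5, 1, 8, 1, 5 and 0 when DMSO replicates 1, 2 and 3 and decitabine replicates 1, 2 and 3 were left out in turn.

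Lipid genes were mixed, with few calls beside the 6.74% of all genes tested that rose and the 6.12% that fell. Cholesterol synthesis and its control gave 3 rises and 3 falls among 30 genes, and the counts of rises and of falls were each 1 without DMSO replicate 1 or without decitabine replicate 3. The falls were also 1 without DMSO replicate 2 and without decitabine replicate 1 or 2. MYLIP, a ligase that degrades the LDL receptor, was at 30.5, 29.8 and 17.4 CPM with DMSO and 127, 120.0 and 144 CPM with decitabine (change 2.34, SE 0.33, adjusted p 1.9e-05). Of 31 fatty acid genes 3 rose and 3 fell, with 1 fall without decitabine replicate 3. HADH, an enzyme of beta-oxidation, was at 297, 295 and 215 CPM with DMSO and 127, 144 and 149 CPM with decitabine (change -0.94, SE 0.17) and ELOVL6, an elongase, at 55.6, 51.2 and 42.8 CPM with DMSO and 95.9, 82.9 and 89.1 CPM with decitabine (change 0.84, SE 0.16).

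In the MYC network, MYC was not called with all libraries (change -0.83, adjusted p 0.0784). It was called lower without DMSO replicate 2 (adjusted p 0.0227) and without decitabine replicate 2 (adjusted p 0.0322). With no filter on low counts it was also called lower (adjusted p 0.00366). Among 14 genes tested, 3 antagonists of MYC rose. MXD1 was at 6.87, 4.18 and 7.34 CPM with DMSO and 19.1, 23.8 and 30.2 CPM with decitabine (change 1.95, SE 0.30, adjusted p 6.1e-05) and MXI1 at 46.8, 47.2 and 41.2 CPM with DMSO and 85.8, 84.6 and 85.6 CPM with decitabine (change 0.92, SE 0.13, adjusted p 1.8e-05). MXD4 was at 12.7, 15.7 and 8.95 CPM with DMSO and 27.4, 23 and 26.8 CPM with decitabine with a change of 1.05, and its call was lost in 5 of the 6 fits that leave out 1 library, all but that without DMSO replicate 2 (adjusted p up to 0.17). MXD1 and MXI1 rose more than the mean of the other 4 lines, with differences of 1.53 and 0.66. MAX, the shared partner, was at 339, 378 and 317 CPM with DMSO and 418, 421 and 392 CPM with decitabine and was not called (adjusted p 0.192).

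The largest changes by the naming rule were found outside these pathways as well as within them. Among the 12 largest rises, 5 were histone genes. ENTPD2, an ectonucleotidase, had 1 read over the DMSO libraries and 81 with decitabine, a ratio of 84.9 (95% interval 14.8 to 3396). DEPP1, a FOXO target, had 3 and 159 reads, a ratio of 55.6 (95% interval 18.7 to 272). DIP2C was at 1.72, 1.72 and 0.537 CPM with DMSO and 32, 32.3 and 25.2 CPM with decitabine (change 4.54, SE 0.45, adjusted p 1.2e-07) and the glutamate transporter gene SLC1A7 at 0.215, 0.246 and 0.716 CPM with DMSO and 9.2, 9.58 and 13 CPM with decitabine. CGREF1 was at 0, 0 and 0.716 CPM with DMSO and 7.59, 4.94 and 7.65 CPM with decitabine. Without DMSO replicate 3, PAGE5 and CGREF1 had no read with DMSO, and the change of SLC1A7 moved from 4.60 to 5.42. The sizes of the changes of ENTPD2, DEPP1, HIST1H2BI and HIST1H2AH rest on 1 to 3 DMSO reads and moved by over 1.5-fold when DMSO replicate 3 was left out. Among the 12 largest falls were BAHCC1, at 52.2, 57.8 and 55.5 CPM with DMSO and 11.3, 19 and 14.1 CPM with decitabine (change -1.87, SE 0.19), the nicotinic receptor subunit gene CHRNA3, at 21.5, 23.1 and 21.8 CPM with DMSO and 5.29, 6.73 and 5.35 CPM with decitabine (change -1.91, SE 0.39), MANEAL, at 6.44, 6.4 and 8.95 CPM with DMSO and 1.15, 2.84 and 2.29 CPM with decitabine (change -1.75, SE 0.39), and the adhesion receptor gene ADGRG1, at 35.8, 16.7 and 32.9 CPM with DMSO and 10.1, 8.08 and 5.73 CPM with decitabine (change -1.81, SE 0.41).

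Rises were not limited to silent genes: 16.0% of the 1017 risers were under 1 CPM with DMSO, against 18.3% of all genes tested.

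The TALL-1 response was more positive than the mean of the other 4 lines for 509 genes (3.38%) and more negative for 604 (4.01%). Of the 1017 genes that rose in TALL-1, 414 were among the former, and of the 923 that fell, 360 were among the latter. The first count ran from 335 to 432 and the second from 358 to 571 when each TALL-1 library was left out in turn. Among S-phase genes the largest differences passing the test included CDC45 (difference -1.60, SE 0.20), GINS2 (difference -1.35, SE 0.18) and DTL (difference -1.35, SE 0.19), where the other lines had mean changes of -0.11, -0.13 and -0.19. DTL, a ligase adaptor that acts at PCNA, was picked after its values were seen. Among G2/M genes CDC20 differed by 1.79 (SE 0.19) and CENPE by 1.56 (SE 0.27). Of the members called in TALL-1, the response also differed in the same direction for 34 of 38 S-phase genes that fell, 22 of 22 G2/M genes that rose and 27 of 33 histone genes that rose.

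**Figure D5:**
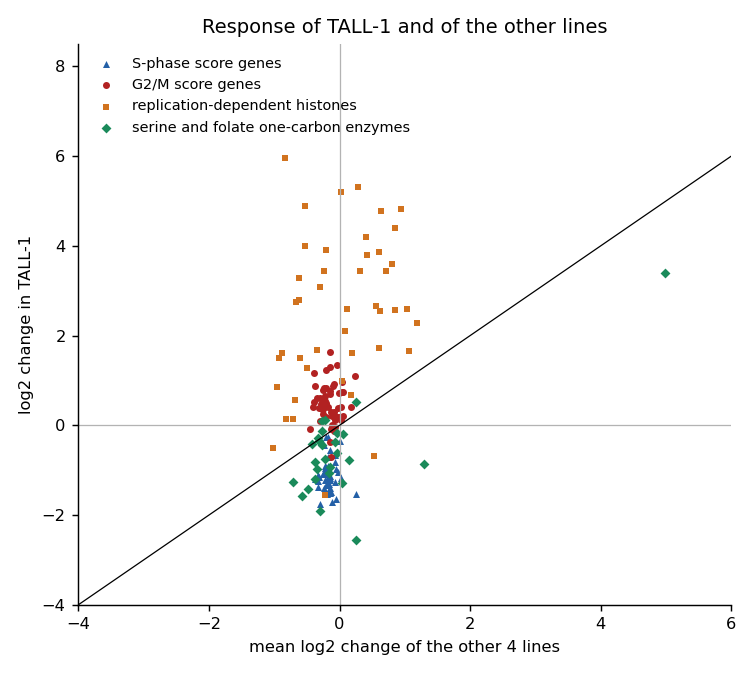
Log2 change in TALL-1 (y axis) against the mean log2 change of the other 4 lines (x axis) for members of 4 lists; the line marks equal responses. S-phase genes lie between -1.76 and -0.27 on the y axis, mostly below the line, and histone genes reach the highest values.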

How the data were processed

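RNA from 5 T-ALL lines was made into 30 libraries with a 3′ end kit (QuantSeq 3′ FWD), per the labels' protocols. The authors deposited raw read counts per gene for each library, aligned with STAR 2.4.2a to GRCh38 (hg38), per the submitters' processing notes. Which gene annotation the counts rest on was not stated in those notes. Column 3 of each file, the counts on the gene's strand, was used, and rows that name no gene were left out: in TALL-1, unmapped reads were 4.00 to 12.3%, multimapping reads 11.7 to 12.2%, reads in no feature 14.3 to 16.5% and ambiguous reads 1.92 to 2.34% of a library. Gene IDs were named by GENCODE 29, which held 56996 of 60554.

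Genes with enough counts (filterByExpr, minimum 10) were fitted over all 30 libraries with 10 group means and TMM scaling in edgeR 4.0.16 (quasi-likelihood F test, R 4.3.3). The response of TALL-1 and its difference from the mean response of the other 4 lines were tested, with Benjamini-Hochberg adjustment. CPM use the scaled library sizes. With 2.49 M reads in the shallowest TALL-1 library, a gene of 1 CPM has 2 to 3 reads there, and counting intervals and ratios cover counting error only. Alternatives were DESeq2 1.42.0, other scalings, no filter, TALL-1 alone, unstranded counts, a replicate block and leaving out libraries.

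The members and gene lists were chosen with earlier results of these data known, as was the rule for named genes: the 12 largest rises and falls at 2-fold or more that reach 5 CPM, do not overlap between treatments and keep their call without DMSO replicate 3; up to 4 called members per list and direction; all members of the lists of CDK inhibitors, E2F and RB family, cyclins and CDKs, histone mRNA processing, DNA methylation, T-lineage factors, T-ALL oncogenes and MYC network; and 6 PEER genes. CD3D, TRBC2, COL1A1, CTH and NARS are named outside this rule, after their values were seen. The replicate numbers did not pair the samples (correlations of deviations of -0.0615, -0.149 and -0.0872). The libraries of a group differed by more than sampling noise (chi-square per degree of freedom 3.15 to 16.4). Some genes are not reported here.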

Additional observations from a re-analysis of the deposited data

Results flagged for a closer look

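The response of TALL-1 differed from the mean response of the other 4 lines by edgeR's test of the difference in 509 genes with a more positive and 604 with a more negative response. By list, 34 S-phase genes, 27 G2/M genes, 29 replication-dependent histone genes and 8 one-carbon genes passed that test.

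Among the largest rises, the difference on the log2 scale was 6.78 for HIST1H2BI, 5.18 for HIST1H2AH, 3.87 for HIST1H4B, 3.79 for HIST1H3B and 3.56 for HIST1H4E. The first 2 rest on 1 and 3 reads over the TALL-1 DMSO libraries, so their fitted sizes depend on how low counts are handled. GZMA differed by 3.34 and DIP2C by 3.07.

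Among the largest falls, the difference was -1.45 for MCM6, -1.48 for BAHCC1, -1.49 for E2F1, -1.60 for CDC45, -1.60 for MTHFD2, -2.07 for ADGRG1 and -2.55 for CHAC1. In ADGRG1 and CHAC1 the mean change of the other lines was positive, at 0.26 and 0.63. The adjusted p of the difference for CHAC1 was 0.049, and it was lost in 5 of the 6 fits that leave out 1 TALL-1 library (adjusted p up to 0.117).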

How the results depend on the processing

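Higher calls in TALL-1 numbered 731 to 831 and lower calls 493 to 822 when 1 TALL-1 library at a time was left out, against 1017 and 923. Genes with a more positive response than the other lines numbered 335 to 432, and with a more negative one 358 to 571. DESeq2 gave 930 more negative responses, against 604. G2/M rises numbered 12 to 24. In all other alternatives run, both TALL-1 counts stayed within 1.5 times their values (upper-quartile scaling gave 1101 and 847). A fit with the replicate block gave 1037 higher and 912 lower genes, but the replicate numbers did not pair the samples. The sign of HHEX, IGLL1, GGH and CCND2 turned without DMSO replicate 3 and without the 3 libraries taken to hold another line's transcripts. The changes there were 0.75 in both for HHEX, 0.96 and 0.97 for IGLL1, 0.34 in both for GGH and 0.63 and 0.64 for CCND2. When another TALL-1 library was left out, their lowest values were -3.87, -3.30, -3.06 and -4.03. The other 2 such libraries are DMSO libraries of MOLT-16 and PEER, taken as mixed beforehand and not checked here. Both stay in the mean response of the other lines in all other fits, and the PEER library in the PEER level. The change of CDKN1A, not called with all libraries, turned from -0.80 to 0.50 without DMSO replicate 3. The sign also turned for FDPS with unstranded counts (0.32); the cause was not tested. Of 195 named genes called, 126 kept their direction and call in every alternative. Counts of called list members were less steady. Apart from S-phase falls and G2/M rises, 26 of 68 such counts stayed within 1.5 times their values in every alternative.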
